A study of Rattus norvegicus with 16 samples.

Results

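The elastic fibre and microfibril genes described here are Fbn1, Fbn2, Eln, Mfap2, Mfap4, Mfap5, Fbln1, Fbln5, Efemp1 and Ltbp2, taken by name from the deposited expression table of rat knee cartilage. They are 10 of its 23552 genes, and 9 of them were abundant enough to be tested. Fbn2 was the exception. RNA was measured in 16 libraries, 4 in each of 4 groups, and every group was labelled as rats aged 10 weeks. The coacervate group was osteoarthritic cartilage given a coacervate with cells and drug, where a coacervate is a polymer-rich droplet phase used as a carrier. The HA group was osteoarthritic cartilage given hyaluronic acid with cells and drug. The osteoarthritic group carried the name PBS in its library names and the healthy group the name Sham. The labels name neither the drug, the cells, the make-up of the coacervate nor how the osteoarthritis was brought about. Both treatments held cells and drug, so their comparison sets the carriers against each other. Nothing in the labels ties a group's replicates to separate animals, so p-values measure only the spread between these libraries.

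Elastic fibres let tissues stretch and recoil. Fibrillin molecules join end to end into microfibrils, small glycoproteins bind along them, and fibulins help place tropoelastin on this scaffold, where lysyl oxidases crosslink it into an elastic core. Microfibrils without elastin also surround chondrocytes, and they hold latent growth factors of the TGF-beta family in the matrix. In joints, elastic fibres are more usual in synovium, ligament and vessel walls than in hyaline cartilage. In the annotation of the deposited table, Fbn1, Fbn2, Mfap2, Mfap4 and Mfap5 carry the term microfibril, which 10 genes of the table have, and Eln, Mfap4, Fbln1 and Fbln5 carry elastic fiber, which 5 genes have. Ltbp2 and Efemp1 carry neither.

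Promoter sequence was matched for 7 of the 10 genes in the RefSeq table of build GRCr8. The 250 bases before the start site are shown for the gene that passed the test in osteoarthritic cartilage, Mfap5, and for Mfap2 and Fbn1, which encode its close relative and the fibrillin to which both bind. They lie at chr4:157399669-157399918 on the plus strand for Mfap5, at chr5:158597478-158597727 on the plus strand for Mfap2 and at chr3:133203391-133203640 on the minus strand for Fbn1. Capitals mark matches to 5 short motifs searched on both strands, namely the TATA box, TATAAA, then the GC box, GGGCGG, then the core of SMAD sites, CAGAC, then the AP-1 site, TGANTCA, and last the E box, CANNTG.
Mfap5: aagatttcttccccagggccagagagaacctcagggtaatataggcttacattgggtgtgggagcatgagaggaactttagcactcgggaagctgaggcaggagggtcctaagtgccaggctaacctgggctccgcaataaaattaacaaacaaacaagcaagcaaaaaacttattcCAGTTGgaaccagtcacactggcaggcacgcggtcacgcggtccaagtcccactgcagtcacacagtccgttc
Mfap2: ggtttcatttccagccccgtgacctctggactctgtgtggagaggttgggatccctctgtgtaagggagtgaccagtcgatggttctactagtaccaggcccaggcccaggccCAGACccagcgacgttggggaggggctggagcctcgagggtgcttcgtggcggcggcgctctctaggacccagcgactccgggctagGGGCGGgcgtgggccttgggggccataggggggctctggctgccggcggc
Fbn1: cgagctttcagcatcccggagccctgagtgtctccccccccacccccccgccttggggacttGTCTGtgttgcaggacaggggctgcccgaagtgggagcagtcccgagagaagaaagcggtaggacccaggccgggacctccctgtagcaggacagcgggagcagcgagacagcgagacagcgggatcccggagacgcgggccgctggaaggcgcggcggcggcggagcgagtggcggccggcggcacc
The Mfap5 window held an E box that begins 73 bases before the start. The Mfap2 window held CAGAC 137 bases and GGGCGG 50 bases before the start. The Fbn1 window held CAGAC on the opposite strand, read as GTCTG, 188 bases before the start. G and C made up 51.6% of the Mfap5 window, 67.6% of the Mfap2 window and 71.2% of the Fbn1 window. The median over all windows of this length was 51.2%, and the 7 matched members ran from 51.6% to 71.2%, with Mfap5 the lowest. Of 33469 windows of the same length, 65.5% held CANNTG, 42.9% CAGAC, 30.5% GGGCGG, 12.9% TATAAA and 6.34% TGANTCA, so each match seen here is a common one, and a match describes letters only.

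Total counts ran from 36988722 to 50725189 per library. The libraries of osteoarthritic replicates 2 and 3 lay away from the rest, at 69.6 and 58.9 on a first principal component that held 32.5% of the variance, against -32.3 to 12.7 elsewhere. Haemoglobin genes took 22.2% and 21.7% of their counts, and 10.2% to 16.3% in the other 14. Ribosomal protein genes took 5.18% and 4.69% of their counts, and 2.38% to 3.42% in the other 14. The 5 adipocyte markers summed to 840 and 1148 FPKM in these 2 libraries, and to 209 to 527 FPKM in the others. The 10 chondrocyte markers were all present, with a summed level of 269 to 835 FPKM and Col2a1 at a mean of 373 FPKM, although Matn1 was too low to be tested. Markers of other tissues were present as well, and the 5 skeletal muscle markers summed to 1536 to 7327 FPKM, most in coacervate replicate 3. The 6 osteoblast markers summed to 684 to 1309 FPKM. The libraries therefore hold RNA from more than cartilage. In such bulk samples fewer cells of a type and less RNA per cell cannot be told apart.

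On the length-scaled FPKM level, averaged over the 16 libraries, the order was Fbn1 (18.7 FPKM), Mfap5 (14.5), Eln (11.1), Ltbp2 (7.13), Fbln5 (7.03), Fbln1 (6.76), Mfap2 (6.12), Mfap4 (3.79), Efemp1 (3.62) and Fbn2 (0.374). The ranges of neighbours in this order overlapped in every case except Efemp1 and Fbn2. Fbn2 stayed between 0.11 and 0.65 FPKM, below the lowest Efemp1 level of 2.05 FPKM. Of the fibrillin transcripts Fbn1 was above Fbn2 in all 16 libraries. Fbln5 was the steadiest tested gene of the group, with 1.64 times as many normalised CPM (counts scaled to library size) in its highest library as in its lowest, and Eln reached 5.69 times. Mfap4 ran from 0 to 24.0 normalised CPM, so it has no such ratio. The plot of levels by library shows all 10.

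**Figure D1:**
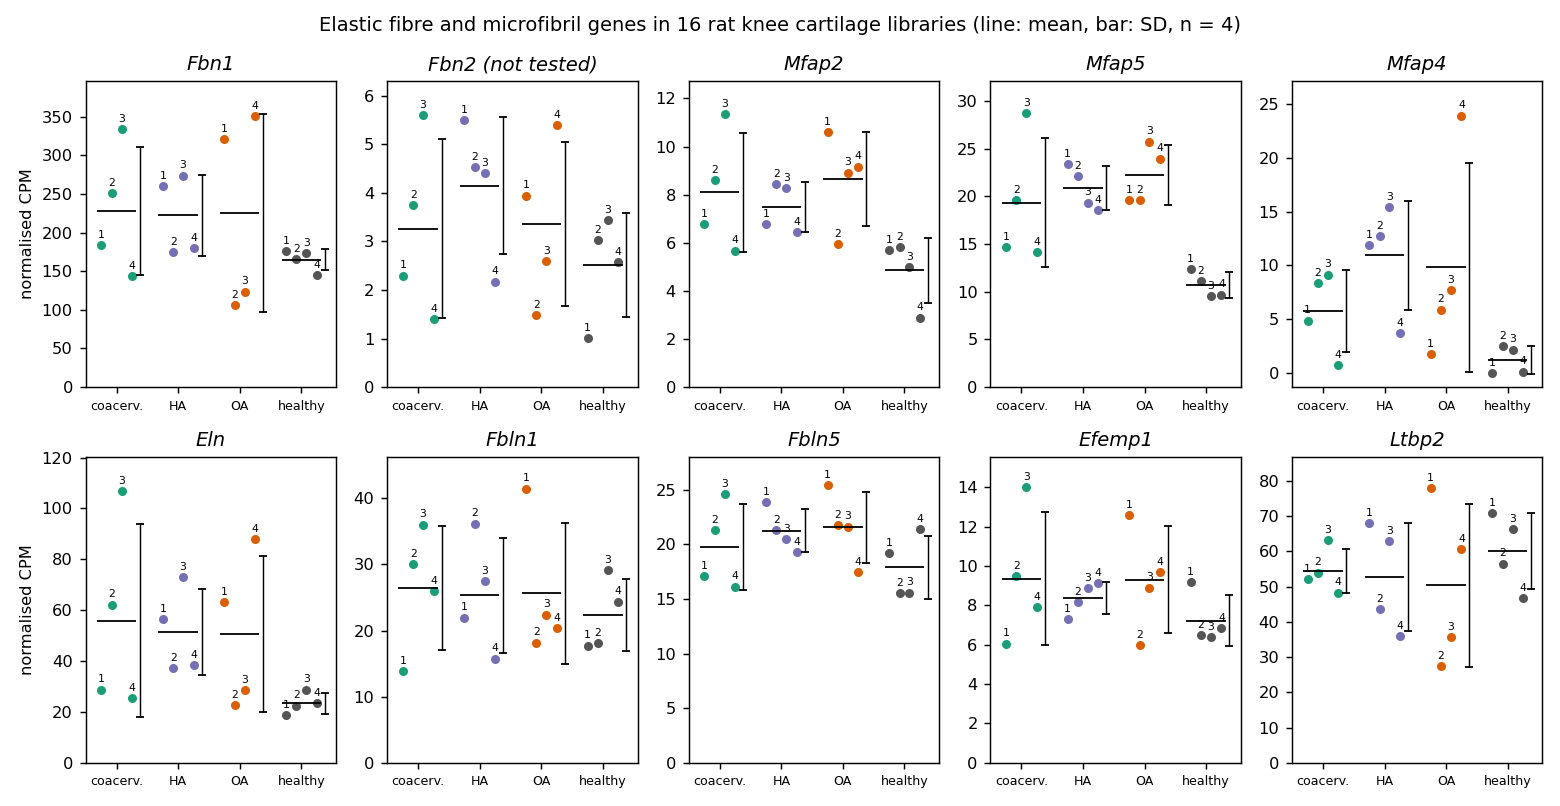
Normalised CPM of the 10 elastic fibre and microfibril genes (y axis, a scale of its own for each gene) in coacervate, HA, osteoarthritic (OA) and healthy libraries (x axis). Points are libraries with their replicate number, lines are means and bars are SD (n = 4). The 4 healthy Mfap5 values (9.58 to 12.4) lie below all 12 others, while the osteoarthritic values of Fbn1 and Eln split into a high pair (replicates 1 and 4) and a low pair (replicates 2 and 3).

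Mfap5 (microfibril-associated glycoprotein 2, which binds fibrillins; ENSRNOG00000015505, rn6 chromosome 4, 155313671 to 155336228, plus strand) was the member with the smallest p in osteoarthritic over healthy cartilage. It had 14.7, 19.7, 28.8 and 14.1 normalised CPM in coacervate replicates 1 to 4 and 23.4, 22.1, 19.4 and 18.6 in HA replicates 1 to 4. It had 19.6, 19.6, 25.8 and 24.0 normalised CPM in osteoarthritic replicates 1 to 4, against 12.4, 11.1, 9.58 and 9.70 in healthy replicates 1 to 4. All 12 osteoarthritic and treated libraries were above the highest healthy one, and the treated groups overlapped with the osteoarthritic group. Group means were 19.3 ± 6.76 in coacervate, 20.9 ± 2.28 in HA, 22.2 ± 3.11 in osteoarthritic and 10.7 ± 1.34 in healthy cartilage (SD, n = 4 each). Mfap5 rose 2.08-fold in osteoarthritic over healthy cartilage, a log2 fold change of 1.06 ± 0.20 (SE; 95% interval 0.64 to 1.47; edgeR adjusted p = 0.0290). It was the only member to pass, 1 of 9, where 0.502% of all 14337 tested genes passed and 0.391% passed on the higher side. The size of the difference kept to 0.99 to 1.13 when any 1 of the 16 libraries was left out, but the call did not always hold. It was lost without healthy replicate 1, 2, 3 or 4 (adjusted p = 0.0586, 0.0732, 0.102 and 0.0886), without osteoarthritic replicate 3 or 4 (0.0834 and 0.0543) and without osteoarthritic replicates 2 and 3 together (0.0501, log2 fold change 1.02). It was also lost in limma (adjusted p = 0.0766 and 0.0847) and held in DESeq2 (9.33e-05).

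Mfap2 (microfibril-associated glycoprotein 1; chromosome 5, 159534202 to 159539750, plus strand) was at a lower level, and its mean was also higher in osteoarthritic than in healthy cartilage without passing. It had 6.77, 8.59, 11.4 and 5.67 normalised CPM in coacervate replicates and 6.76, 8.45, 8.27 and 6.43 in HA replicates. It had 10.6, 5.93, 8.92 and 9.16 normalised CPM in osteoarthritic replicates, against 5.70, 5.82, 4.98 and 2.89 in healthy replicates. The osteoarthritic and healthy values did not overlap, though by a narrow gap of 5.93 in osteoarthritic replicate 2 to 5.82 in healthy replicate 2. The log2 fold change in osteoarthritic over healthy cartilage was 0.84 ± 0.25 (SE; edgeR adjusted p = 0.168), and DESeq2 called it.

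Fbn1 (fibrillin-1, the structural core of microfibrils; chromosome 3, 117569697 to 117766120, minus strand) spread more widely within osteoarthritic cartilage than the group means lay apart. It had 184, 251, 334 and 144 normalised CPM in coacervate replicates and 260.0, 174, 274 and 180.3 in HA replicates. It had 321, 106, 124 and 351 normalised CPM in osteoarthritic replicates, against 175, 165, 174 and 145 in healthy replicates. Osteoarthritic replicates 2 and 3 were the lowest of all 16 libraries, and replicate 4 was the highest. The log2 fold change in osteoarthritic over healthy cartilage was 0.45 ± 0.34 (SE; edgeR adjusted p = 0.494). It was 1.02 without osteoarthritic replicates 2 and 3 (adjusted p = 0.0757) and 0.17 without osteoarthritic replicate 4. Fbn2 (fibrillin-2, mainly a fibrillin of developing tissue) had 1.40 to 5.60 normalised CPM in coacervate, 2.17 to 5.49 in HA, 1.48 to 5.40 in osteoarthritic and 1.004 to 3.43 in healthy libraries. Those are 47 to 272 counts, the 4 groups overlapped, and the gene was too low to be tested.

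Mfap4 (a fibrinogen-domain glycoprotein that binds elastic fibres; chromosome 10, 47765432 to 47768483, plus strand) had the largest log2 fold changes of the members against healthy cartilage, and the largest errors. It had 246, 419, 434 and 37 counts in coacervate replicates and 589, 633, 748 and 173 in HA replicates. It had 82, 238, 324 and 1101 counts in osteoarthritic replicates, against 0, 130, 84 and 5 in healthy replicates. Healthy replicates 1 and 4 were nearly without it, coacervate replicate 4 was low for its group, and osteoarthritic replicate 1 lay below healthy replicates 2 and 3. Mean levels were 5.78 ± 3.83 normalised CPM in coacervate, 10.9 ± 5.05 in HA, 9.81 ± 9.76 in osteoarthritic and 1.19 ± 1.32 in healthy cartilage (SD, n = 4 each). The log2 fold change in osteoarthritic over healthy cartilage was 3.05 ± 1.03 (SE; 95% interval 0.85 to 5.24; edgeR adjusted p = 0.198), and it was 2.11 without osteoarthritic replicate 4. Mfap4 overlaps Mapk7 (a MAP kinase) on the opposite strand, and the strand setting of the counting is not given in the sources used here, so reads of the pair may be mixed. Mapk7 had 10.4 to 18.8 normalised CPM in coacervate, 14.8 to 17.7 in HA, 10.8 to 21.4 in osteoarthritic and 8.48 to 12.8 in healthy libraries.

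Eln (tropoelastin, the monomer of the elastic core; chromosome 12, 24978483 to 25021863, plus strand) was split within groups in the manner of Fbn1. It had 28.8, 62.2, 107 and 25.5 normalised CPM in coacervate replicates and 56.4, 37.2, 73.0 and 38.5 in HA replicates. It had 63.2, 22.8, 28.7 and 87.9 normalised CPM in osteoarthritic replicates, against 18.8, 22.5, 28.8 and 23.4 in healthy replicates. Osteoarthritic replicates 1 and 4 were above every healthy library and replicates 2 and 3 lay within the healthy range. All 4 HA values were above the healthy ones. The mean was 50.6 ± 30.5 in osteoarthritic and 23.4 ± 4.11 in healthy cartilage (SD, n = 4 each). The log2 fold change was 1.12 ± 0.46 (SE; 95% interval 0.15 to 2.09; edgeR adjusted p = 0.235), with 1.69 without osteoarthritic replicates 2 and 3 (adjusted p = 0.0869) and 0.73 without osteoarthritic replicate 4.

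The fibulins differed less between groups. Fbln5 (fibulin-5, which helps deposit elastin on microfibrils) averaged 19.8 ± 3.92 normalised CPM in coacervate, 21.3 ± 1.94 in HA, 21.6 ± 3.25 in osteoarthritic and 17.9 ± 2.87 in healthy cartilage (SD, n = 4 each), and its osteoarthritic over healthy log2 fold change was 0.27 ± 0.16 (SE; edgeR adjusted p = 0.370). Fbln1 (fibulin-1, a matrix glycoprotein found within elastic fibres) averaged 26.5 ± 9.40 normalised CPM in coacervate, 25.3 ± 8.67 in HA, 25.6 ± 10.7 in osteoarthritic and 22.3 ± 5.48 in healthy cartilage (SD, n = 4 each). Its log2 fold change of 0.20 ± 0.32 in osteoarthritic over healthy cartilage (SE; edgeR adjusted p = 0.754) became -0.13 without osteoarthritic replicate 1, the library with the highest Fbln1 level (41.5 CPM). Efemp1 (fibulin-3, whose loss reduces elastic fibres of fascia in mice) averaged 9.35 ± 3.39 normalised CPM in coacervate, 8.36 ± 0.815 in HA, 9.29 ± 2.72 in osteoarthritic and 7.22 ± 1.31 in healthy cartilage (SD, n = 4 each). Healthy replicate 1, at 9.17, lay above the other healthy libraries, at 6.40 to 6.83. Its log2 fold change in osteoarthritic over healthy cartilage was 0.36 ± 0.25 (SE; edgeR adjusted p = 0.437). The groups overlapped for all 3 fibulins.

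Ltbp2 (latent TGF-beta binding protein 2, which binds fibrillin-1 but, unlike its relatives, does not hold latent TGF-beta) was the only tested member whose osteoarthritic mean was below the healthy one. It had 52.1, 54.0, 63.1 and 48.3 normalised CPM in coacervate replicates and 68.1, 43.7, 62.8 and 35.9 in HA replicates. It had 77.9, 27.3, 35.6 and 60.6 normalised CPM in osteoarthritic replicates, against 70.8, 56.5, 66.2 and 46.7 in healthy replicates. Osteoarthritic replicates 2 and 3 were the lowest of all 16 libraries and replicate 1 the highest. The log2 fold change in osteoarthritic over healthy cartilage was -0.25 ± 0.28 (SE; edgeR adjusted p = 0.636), and without osteoarthritic replicates 2 and 3 it was 0.20.

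Across the 9 tested members, 8 had a log2 fold change above 0 in osteoarthritic over healthy cartilage, where 52.1% of all tested genes did. The members' median was 0.45, and that of all tested genes was 0.01. The osteoarthritic values of 2 members (Mfap2 and Mfap5) lay above all healthy values, where 3.14% of tested genes did. An unadjusted p under 0.05 was found for 4 members (Mfap5, Mfap2, Mfap4 and Eln), where 17.8% of tested genes had one. Fibroblast and synovial lining markers varied among the same libraries. Their summed level over 10 of 10 markers, none at 0, was 1209, 398, 538 and 1271 FPKM in osteoarthritic replicates 1 to 4, against 326 to 467 FPKM in healthy libraries. In normalised CPM, the scale used for the members, the sums were 5307, 2164, 2820 and 5791, against 1354 to 1863 in healthy libraries. On that scale each osteoarthritic sum lay above every healthy one, while in FPKM that of replicate 2 lay within the healthy range. Of these markers 1 passed in osteoarthritic over healthy cartilage, Dpt (dermatopontin, a collagen-binding protein; log2 fold change 1.26, edgeR adjusted p = 0.0466). The list was mixed, with Clic5 at -0.82, Dpp4 at -0.55 and Thy1 at -0.11, none of which passed, and its most abundant genes were Col3a1 (mean 430 FPKM) and Prg4 (174 FPKM). The part of these cells in the members' levels was not tested.

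**Figure D2:**
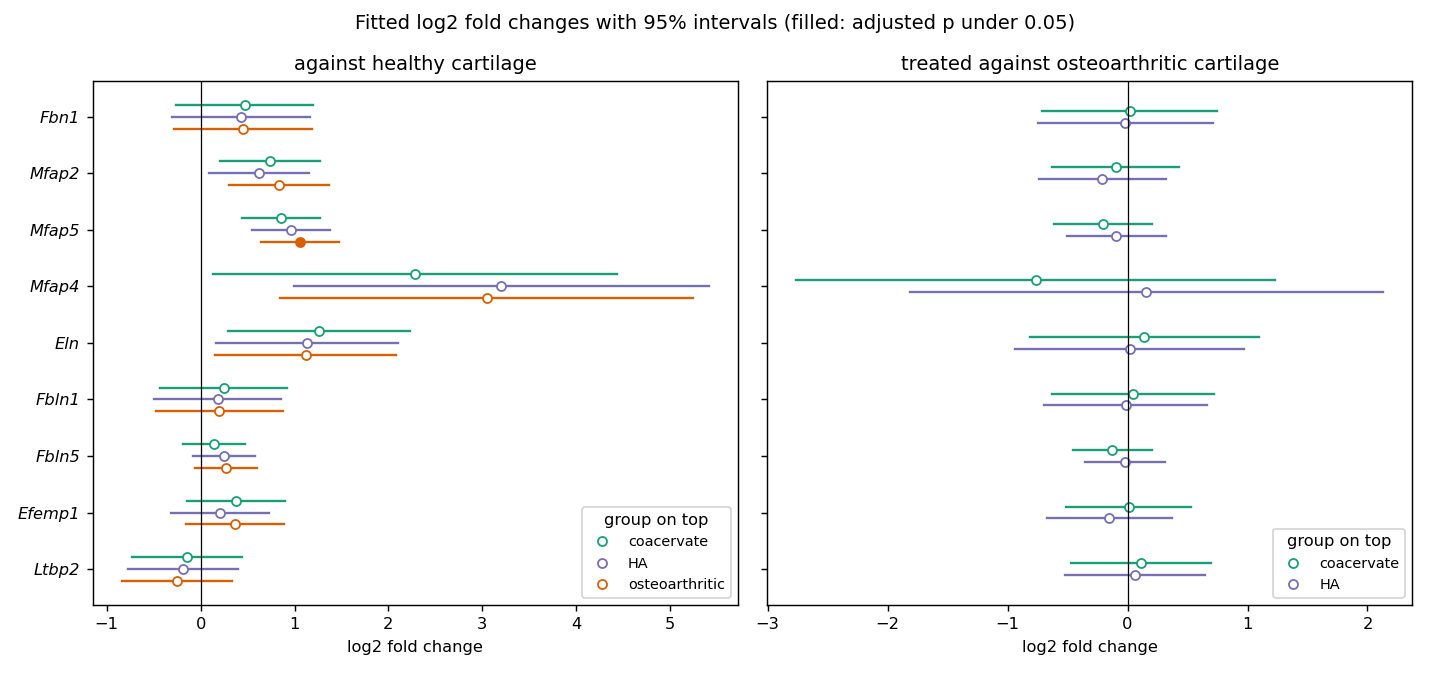
Log2 fold changes of the 9 tested members (rows) with 95% intervals, for coacervate, HA and osteoarthritic over healthy cartilage (left) and for coacervate and HA over osteoarthritic cartilage (right). The filled point is Mfap5 in osteoarthritic over healthy cartilage (1.06), and every interval on the right spans 0.

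The treated groups were then set against osteoarthritic cartilage, which asks whether either treatment moved these genes. Both comparisons share the 4 osteoarthritic libraries. In HA over osteoarthritic cartilage edgeR called 0 of 9 members, and DESeq2 and limma called none. The background was 0% of 14337 genes called. No member had an unadjusted p under 0.05, where 6.34% of tested genes did. The 3 members with the smallest p were Mfap2 (log2 fold change -0.21, 95% interval -0.74 to 0.32), Efemp1 (-0.15, interval -0.67 to 0.37) and Mfap5 (-0.09, interval -0.50 to 0.32). Their edgeR adjusted p were 0.849, 0.898 and 0.918. For Efemp1 the sign turned in limma (0.013 and 0.035 at pseudocounts of 1 and 0.1) and without osteoarthritic replicate 1 (0.016), and for Mfap5 it turned in limma (0.054 and 0.057). These intervals leave room for a change in Mfap5 of up to -0.50 or 0.32, and do not show that the levels were alike.

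In coacervate over osteoarthritic cartilage edgeR again called 0 of 9 members, where 0.146% of all tested genes passed. No member had an unadjusted p under 0.05, where 21.8% of tested genes did, and DESeq2 and limma called none. The 3 with the smallest p were Mfap5 (log2 fold change -0.20, 95% interval -0.61 to 0.21, edgeR adjusted p = 0.534), Mfap4 (-0.76, interval -2.76 to 1.23, adjusted p = 0.640) and Fbln5 (-0.13, interval -0.46 to 0.21, adjusted p = 0.648). The Mfap4 value was 0.16 without osteoarthritic replicate 4. The Mfap5 value ran from -0.46 without coacervate replicate 3 to -0.08 without coacervate replicate 4. The members' median was 0.01, against -0.01 for all tested genes.

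Between the carriers, coacervate over HA, edgeR called 0 of 9 members with 0% of all genes called, and DESeq2 and limma called none. None of the members had an unadjusted p under 0.05, where 10.4% of tested genes did. The smallest p belonged to Mfap4 (log2 fold change -0.92, 95% interval -2.92 to 1.07), Fbln5 (-0.10, interval -0.44 to 0.23) and Efemp1 (0.16, interval -0.36 to 0.68), with edgeR adjusted p of 0.823, 0.892 and 0.892. Efemp1 was at -0.10 without coacervate replicate 3. The spread within the coacervate group was wide for several members. Coacervate replicates 2 and 3 had 62.2 and 107 normalised CPM of Eln, while replicates 1 and 4 had 28.8 and 25.5.

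The treated groups were also set against healthy cartilage. These comparisons share the 4 healthy libraries with each other and with that of osteoarthritic cartilage, and are not independent. In HA over healthy cartilage no member passed in edgeR, where 0.160% of all genes passed. DESeq2 called Mfap5, with 159 of all 14337 tested genes called, and limma called no member. Mfap5 had a log2 fold change of 0.96 ± 0.20 (SE; edgeR adjusted p = 0.0740), Mfap4 3.20 ± 1.04 (adjusted p = 0.348) and Eln 1.14 ± 0.46 (adjusted p = 0.496). Mfap5 passed when coacervate replicate 3 (adjusted p = 0.0138) or osteoarthritic replicates 2 and 3 (0.0441), which are outside this comparison, were left out of the shared fit. The HA values of 4 members (Eln, Mfap2, Mfap4 and Mfap5) lay above all healthy values, where 5.08% of tested genes did, and 4 members had an unadjusted p under 0.05, where 8.25% of tested genes did.

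In coacervate over healthy cartilage edgeR called 0 of 9 members with 0% of all genes called. DESeq2 called Mfap5, with 18 of all 14337 tested genes called, and limma called none. Mfap5 had a log2 fold change of 0.85 ± 0.20 (SE; edgeR adjusted p = 0.696), Mfap2 0.74 ± 0.25 and Eln 1.26 ± 0.46 (both adjusted p = 0.9998). An unadjusted p under 0.05 was found for 4 members, where 3.85% of tested genes had one. The coacervate values of Mfap5 lay above all healthy values, and it was the only member of which this held, where 1.75% of tested genes did. A joint test of any difference among the 4 groups called no member in edgeR, where 0.293% of genes passed. An unadjusted p under 0.05 was found for 3 members, where 14.4% of genes had one. Mfap5 was nearest (adjusted p = 0.0666), DESeq2 called it and limma did not, and it passed in edgeR without osteoarthritic replicate 1 or coacervate replicate 3.

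The highest and lowest levels of the members fell in a few libraries. Coacervate replicate 3 was the highest library for 4 of the 9 tested members, osteoarthritic replicate 1 for 3 and osteoarthritic replicate 4 for 2. Osteoarthritic replicate 2 was the lowest for 3. The summed fibroblast and synovial lining markers were 505 to 1245 FPKM in coacervate, 708 to 1165 in HA, 398 to 1271 in osteoarthritic and 326 to 467 in healthy libraries, and coacervate replicate 3 and osteoarthritic replicates 1 and 4 were the 3 highest. In normalised CPM the sum of HA replicate 3 (5353) lay above that of osteoarthritic replicate 1 (5307). Coacervate replicate 3 also had the highest sums of smooth muscle and pericyte markers (533 FPKM) and of tendon and ligament markers (301 FPKM). The part of these cell types in the members' levels was not tested.

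**Figure D3:**
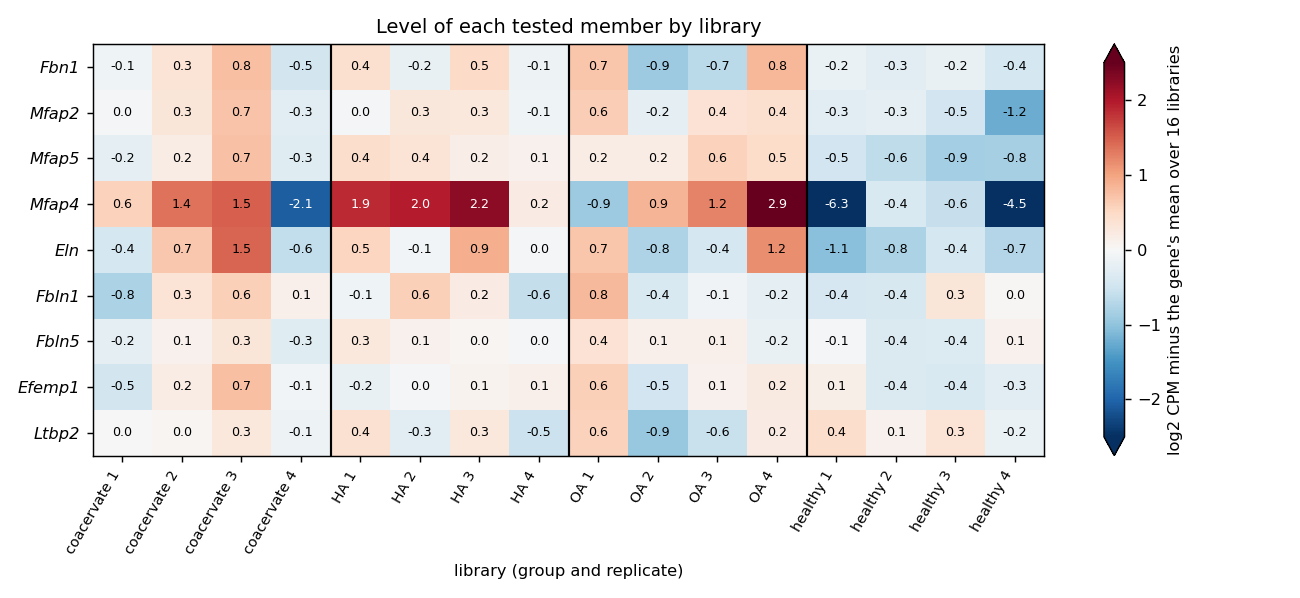
Level of each tested member (rows) in each library (columns, grouped as coacervate, HA, osteoarthritic or OA, and healthy), as log2 CPM minus the gene's mean over 16 libraries. Red is above the mean and blue below, coacervate replicate 3 is above the mean in every row, and Mfap4 in osteoarthritic replicate 4 and healthy replicates 1 and 4 is beyond the colour scale.

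**Figure D4:**
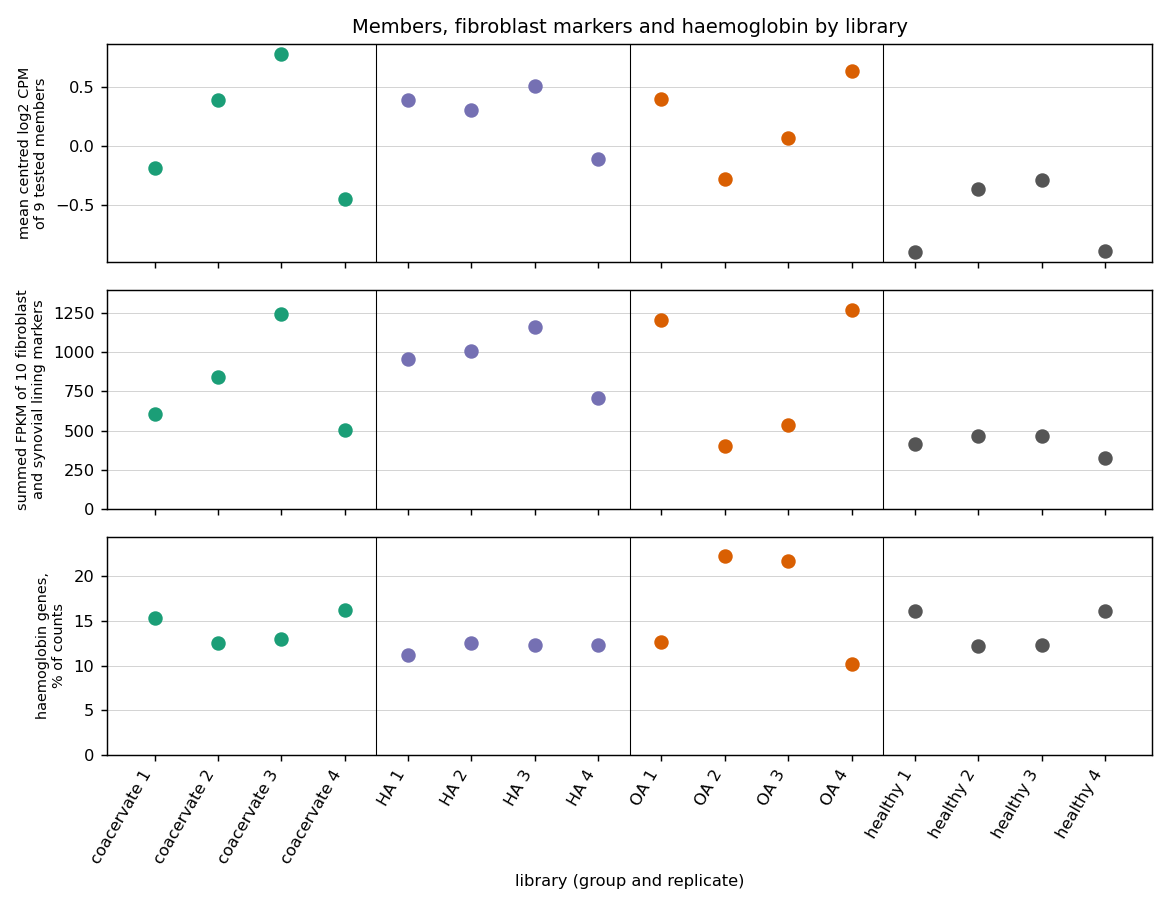
Mean centred log2 CPM of the 9 tested members (top), summed FPKM of 10 fibroblast and synovial lining markers (middle) and share of counts on haemoglobin genes in percent (bottom), 1 point per library, with OA for osteoarthritic. The low top-panel values of healthy replicates 1 and 4 (-0.91 and -0.89) owe much to Mfap4, which had 0 and 5 counts there. The marker sum is 1209 and 1271 FPKM in osteoarthritic replicates 1 and 4 and 398 and 538 FPKM in replicates 2 and 3, whose haemoglobin shares are 22.2% and 21.7%. The top and middle panels use different scales. In normalised CPM the marker sums of osteoarthritic replicates 2 and 3 are 2164 and 2820, against 1354 to 1863 in healthy libraries.

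Over the 16 libraries, Eln (Pearson r = 0.92), Mfap2 (0.86), Mfap4 (0.85) and Mfap5 (0.82) lay closest to the mean profile of the 9 tested members, of which each is a part. Fbn1 (0.74), Efemp1 (0.59), Fbln1 (0.48) and Fbln5 (0.45) were further from it, and Ltbp2 (0.23) was furthest. Mfap4 weighs heavily in this mean profile, with a log2 CPM of -4.56 and -2.74 in healthy replicates 1 and 4. The r of the other members was not computed without it. Among 9432 other tested genes with a mean of at least 5 FPKM, the 6 most like this profile were Col3a1 (type III collagen, r = 0.96), Ssc5d (a secreted scavenger receptor protein, 0.95), Tgfbi (a TGF-beta induced matrix protein, 0.94), Col14a1 (a collagen of fibril surfaces, 0.94), Fbln7 (fibulin-7, 0.93) and Lox (lysyl oxidase, 0.92). With Mfap4 taken out of the profile, r was 0.88 for Col3a1, 0.93 for Ssc5d, 0.90 for Tgfbi, 0.94 for Col14a1, 0.90 for Fbln7 and 0.85 for Lox. Col3a1 is also on the list of fibroblast markers. These values describe libraries that share their groups and tissue make-up, and they carry no test.

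Partner genes of the elastic fibre system were examined in 3 lists. Of 24 tested genes for assembly and crosslinking, edgeR called none in any of the 6 comparisons, and limma called none. In osteoarthritic over healthy cartilage 8 of the 24 had an unadjusted p under 0.05, where 17.8% of all tested genes did. In coacervate over osteoarthritic cartilage 1 did (21.8% of all tested genes), in HA over healthy cartilage 10 (8.25%) and in coacervate over healthy cartilage 4 (3.85%). In HA over osteoarthritic cartilage (6.34%) and in coacervate over HA (10.4%) it was 0. DESeq2 called Efemp2 and Fbln7 in osteoarthritic over healthy, Efemp2 in coacervate over osteoarthritic and Fbln7 in HA over healthy cartilage. Of all 14337 tested genes it called 418, 797 and 159 in these comparisons, in that order. Efemp2 (fibulin-4, which brings lysyl oxidase to tropoelastin) averaged 30.9 ± 2.68 normalised CPM in osteoarthritic and 22.0 ± 1.86 in healthy cartilage (SD, n = 4 each; log2 fold change 0.49 ± 0.12, edgeR adjusted p = 0.0861). Fbln7 averaged 13.2 ± 6.15 in osteoarthritic and 5.58 ± 0.996 in healthy cartilage (1.24 ± 0.35, edgeR adjusted p = 0.139). The list's median log2 fold change in osteoarthritic over healthy cartilage was 0.21, against 0.01 for all tested genes.

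Of 12 tested enzymes known to cut elastin or fibrillin, Ctsl (cathepsin L, a lysosomal protease that can also act outside the cell) was the only one called by edgeR. DESeq2 called Mmp2, Mmp7, Mmp12, Ctsl and Ctss in osteoarthritic over healthy cartilage and Mmp2, Mmp12, Ctsl and Ctss in HA over healthy cartilage. Of all 14337 tested genes it called 418 in the former comparison and 159 in the latter. Mmp7 passed the filter only through osteoarthritic and HA libraries, so its DESeq2 call against healthy cartilage follows in part from the filter. Limma called 1 enzyme in osteoarthritic over healthy cartilage at either pseudocount, and 2 enzymes at a pseudocount of 1 and 0 at 0.1 in HA over healthy cartilage. Of all tested genes limma called 10 and 12 in the former and 9 and 2 in the latter, at pseudocounts of 1 and 0.1. In osteoarthritic over healthy cartilage 10 of the 12 enzymes had a log2 fold change above 0, where 52.1% of all tested genes did. Ctsk (-0.38, edgeR adjusted p = 0.448) and Mmp9 (-0.16, edgeR adjusted p = 0.593) went the other way. Ctsk values were at most 936.7 normalised CPM in osteoarthritic and at least 937.9 in healthy libraries. Ctsl averaged 141 ± 14.7 normalised CPM in coacervate, 233 ± 49.9 in HA, 241 ± 24.6 in osteoarthritic and 126 ± 8.61 in healthy cartilage (SD, n = 4 each). Its coacervate values did not overlap with the osteoarthritic ones, and its osteoarthritic values did not overlap with the healthy ones. Ctsl fell by 0.77 ± 0.13 on the log2 scale in coacervate over osteoarthritic cartilage (SE; edgeR adjusted p = 0.0497). That call held without osteoarthritic replicate 1, osteoarthritic replicate 4 or HA replicate 2 and was lost without each of the other 13 libraries (adjusted p up to 0.183). It was also lost without osteoarthritic replicates 2 and 3 together (log2 fold change -0.65, edgeR adjusted p = 0.121) and in a fit of the 2 groups alone (0.281). With no filter on low values (0.0723) and in limma (0.109 and 0.122) it was lost as well. DESeq2 made the call, with 797 of all 14337 tested genes called. Ctsl rose by 0.93 ± 0.13 in osteoarthritic over healthy cartilage (edgeR adjusted p = 0.0115), which held without any 1 of the 16 libraries. It rose by 0.89 ± 0.13 in HA over healthy cartilage (edgeR adjusted p = 0.0258), and that call was lost without healthy replicate 1, 2, 3 or 4 (adjusted p = 0.0714, 0.0957, 0.125 and 0.144) or HA replicate 2 or 3 (0.0518 and 0.0584) and in limma at a pseudocount of 0.1 (0.0502). The 6 macrophage markers summed to 199 to 222 FPKM in coacervate, 215 to 301 in HA, 137 to 327 in osteoarthritic and 195 to 256 in healthy libraries, with Cd68 (mean 108 FPKM) the most abundant of them. Of the 6, Trem2 (a lipid-sensing receptor of macrophages) passed in osteoarthritic over healthy cartilage (log2 fold change 2.33, edgeR adjusted p = 0.0115). This list was mixed too, with Cd68 at 0.32, Csf1r at -0.01, Mrc1 at -0.13, Adgre1 at -0.15 and Cd163 at -0.55, none of which passed. The part of these cells in the Ctsl level was not tested.

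The other enzymes had lower fitted levels in the coacervate group than in the osteoarthritic and HA groups, without passing. In coacervate over osteoarthritic cartilage all 12 log2 fold changes were below 0, with a median of -0.60 against -0.01 for all tested genes, and 6 had an unadjusted p under 0.05, where 21.8% of tested genes did. In coacervate over HA all 12 were below 0 as well, with a median of -0.61 against -0.0015 for all tested genes. The coacervate values of 7 enzymes lay below all HA values, where 5.36% of tested genes did. EdgeR called none of the 12 there, and 7 had an unadjusted p under 0.05, where 10.4% of tested genes did. DESeq2 called Ctsl there, with 325 of all 14337 tested genes called, and limma called none. Both comparisons share the 4 coacervate libraries. Elane, Prtn3 and Ctsg were among the enzymes with an unadjusted p under 0.05 in both. The part of cell types in these enzyme levels was not tested. In coacervate over healthy cartilage 5 of the 12 were above 0, with a median of -0.14 against 0.0045 for all tested genes. Mmp7 (matrilysin), chosen after its values were seen for the largest size, was at -3.43 ± 0.998 in coacervate over osteoarthritic cartilage (SE; edgeR adjusted p = 0.119). Its levels were 0.13 to 0.24 normalised CPM in coacervate and 0 to 5.62 in osteoarthritic libraries. Mmp7 averaged 0.14 FPKM in coacervate and 0.16 in healthy libraries, so it passed the filter only through osteoarthritic and HA libraries. Its lower coacervate level, and its place in the counts above, follow in part from that filter and give no support of their own.

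Of 12 tested genes for TGF-beta ligands, their receptors and the integrin subunits that bind microfibril-held TGF-beta, edgeR, DESeq2 and limma called none in any of the 6 comparisons. The integrin subunits Itgb6 and Itgb8, also on this list, were too low to be tested. An unadjusted p under 0.05 was found for 2 of the 12 in osteoarthritic over healthy cartilage, where 17.8% of all tested genes had one, for 2 in coacervate over osteoarthritic cartilage, where 21.8% did, and for none in the others. These shares are no higher than those over all genes. The smallest p in osteoarthritic over healthy cartilage belonged to Itgb3 and Tgfb3. Itgb3 (integrin beta 3) had a log2 fold change of -0.58 ± 0.21 (edgeR adjusted p = 0.209) and Tgfb3 (a TGF-beta ligand) 0.52 ± 0.23 (edgeR adjusted p = 0.261). The list's median in that comparison was -0.05, against 0.01 for all tested genes.

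**Figure D5:**
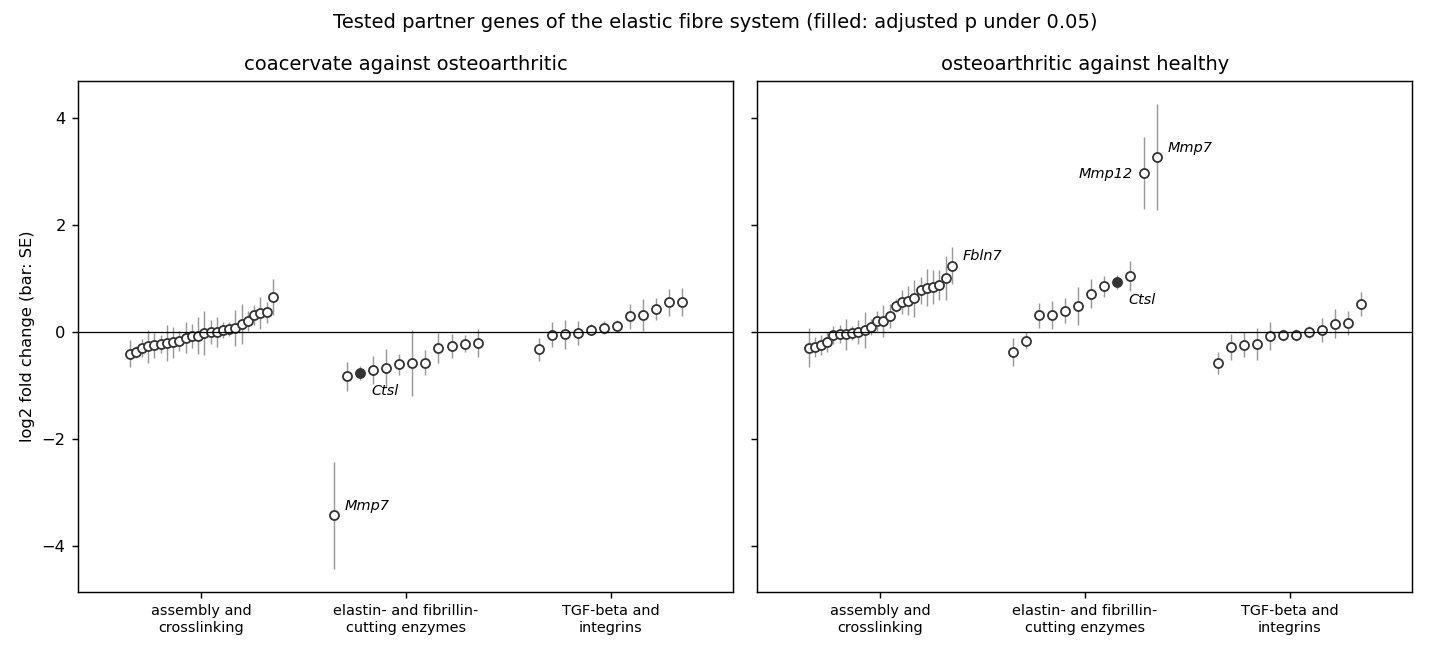
Log2 fold changes with SE of the tested genes of 3 partner lists, ordered by size within each list, for coacervate over osteoarthritic (left) and osteoarthritic over healthy cartilage (right). The filled point is Ctsl in both panels (-0.77 left, 0.93 right), and all 12 enzyme points lie below 0 on the left. Fbln7, Mmp7 and Mmp12 are labelled for their size.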

How the data were processed

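Knee cartilage RNA of rats was measured by RNA-seq in 16 libraries, 4 per group, with groups taken from the sample titles. The deposited table gives raw whole-number counts per gene and library, per the file headers, and FPKM values, which the authors scaled to gene length and depth. The submitters' processing notes list build rn6, StringTie 2.1.6, HISAT2 2.2.1, cutadapt 1.9, edgeR and DESeq2 without roles. The labels' protocols describe oligo(dT) selection and dUTP strand marking. The counting tool, its strand setting and the annotation version are not given in the sources used here. Among low counts, 2 occurred 6480 times and 3 occurred 4576 times, so mates of a pair may have been counted separately, which would overstate the depth. Counting error covers amplified fragments without molecular identifiers.

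The 14337 genes that reached an FPKM of 1 in 4 or more of the 16 libraries were tested on the counts with edgeR's quasi-likelihood test (edgeR 4.0.16, R 4.3.3), TMM scaling and 4 group means in 1 fit. P-values were adjusted over all tested genes by the Benjamini-Hochberg method (threshold 0.05). SE and 95% intervals come from the same test. Normalised CPM are counts relative to the TMM-scaled library size, and log2 CPM used a prior count of 2. All 9 tested members are named in osteoarthritic over healthy cartilage. Elsewhere those that passed are named, or else the 3 with the smallest p, and for partner lists those that passed or else the 2 with the smallest p. Alternatives were other scalings, no filter, DESeq2 1.42.0, limma 3.58.1 on log2(FPKM + 1) and log2(FPKM + 0.1), a replicate block, smaller fits and left-out libraries. Sequences are from RefSeq. The members and lists were chosen with earlier results of these data known. Some listed partner and marker genes, among them Thsd4, Hspg2 and Pecam1, were not analysed here.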

Additional observations from a re-analysis of the deposited data

Results flagged for a closer look

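Efemp1 was at 9.17 normalised CPM in healthy replicate 1, against 6.40 to 6.83 in the other healthy libraries, a gap of 0.845 of the group's range, past the limit of Dixon's test. This was the 1 value standing apart in 40 groups of 4 examined (10 genes in 4 groups), and chance marks about 1 group in 20.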

How the results depend on the processing

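Of 624 alternative values for 24 member results, 597 kept their direction and their side of the threshold, 9 changed sign and 18 changed side. In osteoarthritic over healthy cartilage the count of members called, 1 here, was 2 in DESeq2, 0 in limma at either pseudocount, 0 with a replicate block, 0 in a fit of the 2 groups alone, 0 without osteoarthritic replicates 2 and 3 and 0 to 1 when 1 library was left out. Of all 14337 tested genes, 72 were called here, 418 in DESeq2, 10 and 12 in limma and 26 with the block. In the fit of the 2 groups 8 were called, without those replicates 164, and with 1 library left out 15 to 1122. In HA over healthy cartilage, with 0 here, the count of members was 1 in DESeq2, 2 in the fit of the 2 groups (Eln and Mfap5), 1 without osteoarthritic replicates 2 and 3 and 0 to 1 with 1 library left out. Of all tested genes, 23 were called here, 159 in DESeq2 and 390 in the fit of the 2 groups. Without those replicates 94 were called, and with 1 library left out 0 to 37. In coacervate over healthy cartilage the count of members was 1 in DESeq2, where 18 of all tested genes were called. For any difference among the groups the count of members was 1 in DESeq2 and 0 to 1 with 1 library left out. Of all tested genes, 42 were called here, 735 in DESeq2 and 7 to 320 with 1 library left out. Signs turned in osteoarthritic over healthy cartilage for Fbln1 (-0.13 to 0.36 with 1 library left out) and for Ltbp2 (0.20 without osteoarthritic replicates 2 and 3). In HA over osteoarthritic cartilage they turned for Efemp1 (0.013 and 0.035 in limma, -0.32 to 0.016 with 1 library left out) and Mfap5 (0.054 and 0.057 in limma). They turned for Mfap4 in coacervate over osteoarthritic (-1.12 to 0.16) and for Efemp1 in coacervate over HA (-0.10 to 0.33), each with 1 library left out. The causes were not tested. With the replicate number as a block the Mfap5 call in osteoarthritic over healthy cartilage was lost (adjusted p = 0.0692, log2 fold change 1.05), as were the Ctsl calls in coacervate over osteoarthritic (0.0984) and HA over healthy cartilage (0.0529). The numbers showed no clear pairing of the libraries. The 24 pairs of the same number correlated at -0.386 to 0.211, with 4 above 0.1, and 1 of 16 libraries correlated best with its own number. The labels do not say what the numbers mean, and this check cannot exclude a weak pairing. Leaving out the haemoglobin genes, added after seeing the data, changed no call of a member. Few counts limit Mfap4 and Fbn2.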
